A study of Homo sapiens with 18 samples.

Results

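Jagged1 was added back to Jagged1 knockout breast cancer cells from a plasmid, and the resulting transcriptome was compared with that of knockout cells carrying the empty plasmid. The comparison used the 3 Jag1KO + rescue and the 3 Jag1KO + ctrl libraries, which are 6 of the 18 libraries of the series. Genes with a symbol and above 1 CPM (read counts scaled to the size of the library) in at least 3 of these 6 libraries were tested, which kept 12844 of the 21411 genes in the count table.

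The study sequenced mRNA from MDA-MB-231 cells, an established triple-negative breast cancer (TNBC) line, after 7 days as 3D cultures in Matrigel at 2 mg/ml, each seeded with 50000 cells. Its 6 conditions had 3 biological replicates each. Jag1WT is the unedited line. For Jag1KO, clones grown from single cells after Cas9 editing of JAG1 were mixed. Jag1KO + rescue is Jag1KO transfected with pcDNA3.1 carrying Jagged1 cDNA, and Jag1KO + ctrl is Jag1KO transfected with the same plasmid without an insert. Both transfected lines were kept under G418, so that the edited background, the plasmid and the selection are common to both groups. Differences between the transfected lines that arose during transfection or selection cannot be told apart from the effect of the insert.

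Jagged1 is a transmembrane ligand of the Notch receptors. Ligand on one cell engages a receptor on its neighbour, ADAM proteases and γ-secretase then cut the receptor, and its freed intracellular domain joins the DNA-binding protein RBPJ and the Mastermind coactivators to switch on genes such as those of the HES and HEY repressors. High Jagged1 has been linked to poor outcome in basal and triple-negative breast cancer.

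The 6 libraries held 14813722 to 18327890 reads counted on genes, within the range of 10330581 to 18327890 of the whole series. All 6 listed mesenchymal and basal markers of MDA-MB-231 were present. Their summed level was 5810 to 8530 CPM in Jag1KO + rescue and 7550 to 9440 CPM in Jag1KO + ctrl. Of the 7 markers listed as absent or low in the line, ESR1, the estrogen receptor, had at most 2 reads in any library. The others reached 17 (CDH1), 26 (PGR), 72 (FOXA1), 150 (EPCAM), 192 (GATA3) and 1001 reads (ERBB2). Of the fibroblast markers DCN and COL1A2, the endothelial marker CDH5 and the leukocyte markers PTPRC and CD3E, none had more than 2 reads in a library, whereas other members of these lists reached 142 (COL1A1), 154 (RGS5), 252 (PECAM1), 289 (KDR), 83 (CD14) and 3486 reads (CD68). A single library lay nearer to the other group than to its own. Jag1KO + ctrl replicate 3 correlated at r = 0.971, 0.987 and 0.989 with Jag1KO + rescue replicates 1, 2 and 3, but at 0.965 and 0.951 with Jag1KO + ctrl replicates 1 and 2, which correlated with each other at 0.990 (Pearson, log2(CPM + 1), across 12844 genes, which are not independent). Only 49 genes differed more than 2-fold between Jag1KO + ctrl replicates 1 and 2, whereas 826 and 1229 genes differed so between each of these and replicate 3. Results are therefore given with and without Jag1KO + ctrl replicate 3. The add-back libraries were also spread. Jag1KO + rescue replicates 1 and 2 correlated at 0.966, and 915 genes differed more than 2-fold between them. Each correlated at 0.987 with Jag1KO + rescue replicate 3, from which 193 and 194 genes differed so.

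JAG1 itself had the smallest false discovery rate (FDR) of the comparison, where FDR is the Benjamini-Hochberg adjusted p of edgeR's quasi-likelihood test. JAG1 (Entrez gene 182) lies on the minus strand of chromosome 20, chr20:10637684-10673999 in hg38. Its level was 534, 657 and 646 CPM in Jag1KO + rescue and 110.2, 134 and 147 CPM in Jag1KO + ctrl. The groups did not overlap, and Jag1KO + ctrl replicate 3 lay with the other empty-vector libraries. JAG1 rose by 2.22 ± 0.18 on the log2 scale (SE, n = 3 against 3), at an FDR of 0.0227. Without Jag1KO + ctrl replicate 3 it rose by 2.32 (FDR 0.00266), while leaving out any of the other 5 libraries kept the log2 difference at 2.10 or above but took its FDR past 0.05, to at most 0.244. On the same scale the unedited cells had 433, 585 and 522 CPM and the untransfected knockout cells 116, 205 and 149 CPM. Mean levels were thus 612 ± 68.0 CPM with the add-back and 513 ± 76.8 CPM in Jag1WT, against 130.5 ± 18.7 CPM with the empty vector (SD, n = 3 each), which put the add-back at 119% and the empty vector at 25.4% of the Jag1WT mean. Reads from the plasmid cDNA, from intact and from edited JAG1 are counted together, so that these values do not measure the protein.

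**Figure D1:**
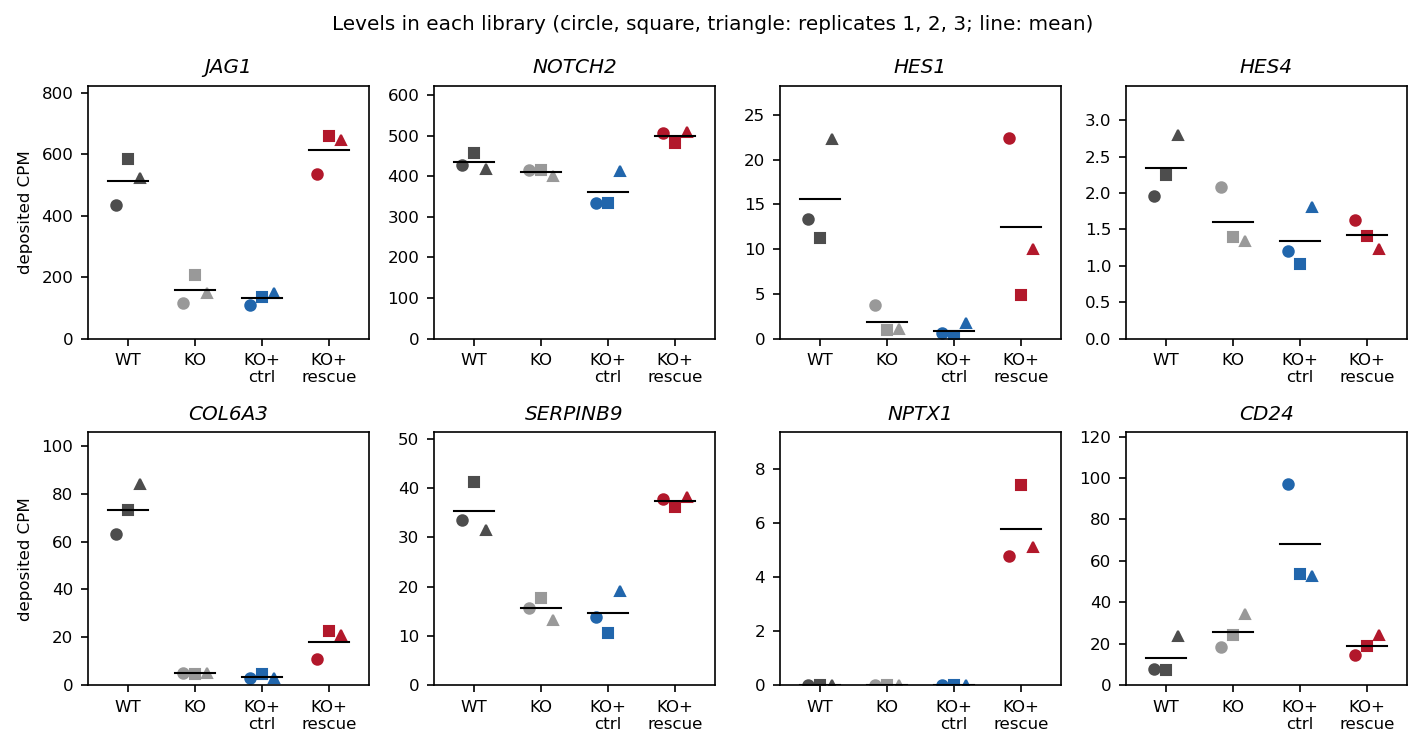
Deposited CPM of 8 genes in each library of Jag1WT, Jag1KO, Jag1KO + ctrl and Jag1KO + rescue, with points for replicates and a line for the mean of 3. JAG1, COL6A3 and SERPINB9 were lower in both Jag1KO and Jag1KO + ctrl than in Jag1WT and Jag1KO + rescue, NPTX1 was at or near 0 outside Jag1KO + rescue, and the 3 Jag1KO + rescue points of HES1 spread from 4.88 to 22.4 CPM.

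Over all 6 libraries, JAG1 was the only gene called at an FDR below 0.05 and a fold change above 1.5. This is 1 of 12844 genes higher (0.00779%) and 0 lower (0%), although 3954 genes (30.8%) had an unadjusted p below 0.05 in the same edgeR fit. The groups did not overlap for 2119 genes that were higher (16.5%) and 2060 that were lower (16.0%) in all Jag1KO + rescue libraries. Without Jag1KO + ctrl replicate 3, edgeR called 1769 genes higher (14.0%) and 1843 lower (14.5%) of 12680 tested. The tools also differed on the 6 libraries, since DESeq2 called 584 genes higher (4.55%) and 996 lower (7.75%). For any 1 gene, the smallest two-sided p that an exact permutation of 3 libraries against 3 can reach is 0.1. In what follows, "called" without further words refers to edgeR on all 6 libraries.

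Of the Notch ligands, only JAG1 was abundant, and NOTCH2 was the most abundant receptor per length in both groups. Per kilobase, JAG1 reached 102 ± 11.3 RPKM with the add-back and 21.8 ± 3.13 RPKM with the empty vector, NOTCH2 40.3 ± 1.18 and 29.1 ± 3.70 RPKM, and NOTCH1 6.89 ± 2.16 and 5.00 ± 1.66 RPKM (SD, n = 3 each). The other ligands JAG2, DLL1, DLL3 and DLL4 and the receptors NOTCH3 and NOTCH4 reached at most 0.737 RPKM, in DLL4. NOTCH2 was at 506, 483 and 510.3 CPM in Jag1KO + rescue and 334, 336 and 414 CPM in Jag1KO + ctrl. The groups did not overlap, and Jag1KO + ctrl replicate 3 was the highest of its group. The difference was 0.46 ± 0.15 on the log2 scale and was not called (FDR 0.113), and without Jag1KO + ctrl replicate 3 it was 0.57 at an FDR of 0.0105, below the fold change of 1.5 needed for a call. NOTCH1 was at 86.2, 47.2 and 58.7 CPM in Jag1KO + rescue and 37.7, 37.5 and 64.3 CPM in Jag1KO + ctrl, with overlapping groups (0.45 ± 0.29), and rose by 0.76 without replicate 3 (FDR 0.049). The low-level members JAG2, DLL4 and NOTCH4 differed by −0.14, 0.25 and −0.86, none called, the groups being separate for NOTCH4. DLL1, DLL3 and NOTCH3 did not pass the filter, which left 6 of 9 listed ligands and receptors, with a median log2 fold change of 0.35 against −0.0025 over all genes tested. The 6 include JAG1, which the plasmid itself supplies.

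None of the 23 measured members of the Notch processing and modulator list was called, and their median log2 fold change was 0.05. The groups did not overlap for 4 members higher and 5 lower, near the 16.5% and 16.0% of all genes for the first and somewhat above it for the second. The Fringe enzymes add sugars to Notch receptors and shift their preference between ligands, and LFNG and RFNG of this family passed the filter. LFNG was at 2.04, 2.62 and 2.46 CPM in Jag1KO + rescue and 4.62, 5.81 and 4.03 CPM in Jag1KO + ctrl, and RFNG was at 14.2, 16.0 and 14.2 CPM in Jag1KO + rescue and 20.8, 21.9 and 24.7 CPM in Jag1KO + ctrl. Both had lower levels in all 3 add-back libraries (log2 −1.02 ± 0.26, FDR 0.106, and −0.61 ± 0.16, FDR 0.106). When Jag1KO + ctrl replicate 3 was left out, LFNG fell (log2 −1.14, FDR 0.0185), while RFNG was at −0.53 (FDR 0.0422), short of a 1.5-fold change. When the shift of the libraries with transcript GC content was removed, RFNG was at −0.18 (FDR 0.496), or −0.08 also without Jag1KO + ctrl replicate 3, and LFNG at −0.76 (FDR 0.144), or −0.88 (FDR 0.0467). ITCH, a ubiquitin ligase that acts on Notch, was at 154, 161 and 173 CPM in Jag1KO + rescue and 104, 85.9 and 146 CPM in Jag1KO + ctrl, and its Jag1KO + ctrl replicate 3 was close to the add-back libraries. Without Jag1KO + ctrl replicate 3, ITCH rose by 0.77 (FDR 0.00756). MIB2, a ligase that activates Notch ligands, was −0.65 with separate groups, and MIB1 0.23, while RBPJ was 0.10 and the coactivators MAML1, MAML2 and MAML3 were 0.43, −0.43 and 0.13. The receptor proteases ADAM10 and ADAM17 differed by −0.20 and 0.33. The γ-secretase genes PSEN2, NCSTN, APH1A, APH1B and PSENEN, the glycosyltransferase genes POFUT1 and POGLUT1, the Notch inhibitors NUMB and NUMBL and the Deltex genes DTX2 and DTX3 lay between −0.55 for DTX2 and 0.32 for NUMB. MFNG, DTX4 and NEURL1B did not pass the filter. NEURL1B, of a family of ligases that act on Notch ligands, was at 1.5, 1.38 and 0 CPM in Jag1KO + ctrl and at 0.136, 0 and 0 CPM in Jag1KO + rescue, so that its replicate 3 was at 0 like 2 of the add-back libraries.

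HES1, the best known direct target of Notch, was the target gene that differed most. Its level was 22.4, 4.88 and 9.96 CPM in Jag1KO + rescue and 0.659, 0.24 and 1.75 CPM in Jag1KO + ctrl. The groups did not overlap, but the add-back libraries themselves spread over several fold, with replicate 1 highest. The mean was 14.1 times as high with the add-back as with the empty vector. The log2 fold change of 3.79 ± 0.75 was not called over 6 libraries (edgeR, FDR 0.104). DESeq2 gave HES1 an FDR of 1.07e-05 on the same 6 libraries, and edgeR over all 18 libraries gave 0.00452. HES1 rose by 4.75 ± 0.83 without Jag1KO + ctrl replicate 3 (FDR 0.00778). Jag1WT had 13.4, 11.2 and 22.3 CPM and Jag1KO 3.72, 0.927 and 1.05 CPM, so that the mean of the add-back libraries was 79.5% of that of Jag1WT and the empty-vector mean 5.64%. HES7, a repressor of the same family, was at 2.25, 2.05 and 1.64 CPM in Jag1KO + rescue and 0.42, 0.899 and 1.26 CPM in Jag1KO + ctrl, again without overlap (log2 1.18, FDR 0.125), and rose by 1.57 without Jag1KO + ctrl replicate 3 (FDR 0.0285). The Jag1KO + ctrl libraries held only 7, 15 and 21 reads of HES7. Unlike HES1, HES7 had similar means in Jag1WT and Jag1KO, of 1.03 and 1.06 CPM. HEY1 was at 7.7, 7.42 and 8.79 CPM in Jag1KO + rescue and 5.4, 2.76 and 9.21 CPM in Jag1KO + ctrl, where Jag1KO + ctrl replicate 3 was the highest of all 6. HES4 and NRARP, a feedback inhibitor of Notch, overlapped between the groups and differed by 0.08 ± 0.34 and 0.44 ± 0.39. HES2, HES5, HEY2 and HEYL did not pass the filter. Among these, HES2 was at 0.75, 0.495 and 0.352 CPM in Jag1KO + rescue and 1.74, 2.7 and 0.902 CPM in Jag1KO + ctrl and HEYL at 0.136, 0.212 and 0.352 CPM in Jag1KO + rescue and 0.719, 0.359 and 0.361 CPM in Jag1KO + ctrl, so that both had lower levels in all 3 add-back libraries, although these levels are low and were not tested. HES5 had no reads in the 6 libraries, and HEY2 overlapped between the groups. All 5 targets that passed the filter had a positive log2 fold change, with a median of 0.45 against −0.0025 over all genes tested, and none was called. Lower levels were thus seen only in HES2 and HEYL, which were not tested. Of the 5 that passed the filter, HES1 and HES7 had separate groups on the higher side, where the share over all genes was 16.5%.

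The promoters of HES1 and HES4 are shown because both hold the core letters of the RBPJ site while the groups were separate for HES1 and overlapped for HES4. The motif GTGGGAA, searched on both strands (TTCCCAC), occurred in 6.25% of 35116 RefSeq promoter windows that run from 250 bases before to 50 bases after a gene's start (GRCh38.p14). Of the 4 measured targets whose windows were searched, HES1 and HES4 held 1 match each and HES7 and NRARP none. A match describes the letters and is not evidence of binding. Capitals mark the match, and each window is written 5′ to 3′ on the strand of the gene.
HES1, plus strand, chr3:194135898-194136197: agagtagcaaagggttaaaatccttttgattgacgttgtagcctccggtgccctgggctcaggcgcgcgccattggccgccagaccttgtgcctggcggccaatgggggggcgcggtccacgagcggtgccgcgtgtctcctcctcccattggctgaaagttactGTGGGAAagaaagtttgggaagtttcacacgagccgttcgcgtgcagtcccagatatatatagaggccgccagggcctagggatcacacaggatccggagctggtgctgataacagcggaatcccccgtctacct
HES4, minus strand, chr1:1000048-1000347: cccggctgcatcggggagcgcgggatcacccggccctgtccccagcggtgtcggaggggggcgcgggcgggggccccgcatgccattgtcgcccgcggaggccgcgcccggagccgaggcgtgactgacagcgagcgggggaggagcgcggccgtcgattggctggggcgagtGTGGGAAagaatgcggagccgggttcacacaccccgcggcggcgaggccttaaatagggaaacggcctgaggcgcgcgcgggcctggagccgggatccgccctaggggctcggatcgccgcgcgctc
With the HES1 window go the levels of 22.4, 4.88 and 9.96 CPM against 0.659, 0.24 and 1.75 CPM, and with the HES4 window 1.64, 1.41 and 1.23 CPM against 1.2, 1.02 and 1.8 CPM.

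Beyond JAG1, the genes leading the higher side were of mixed function, and none was called on 6 libraries. NPTX1, which encodes a secreted neuronal pentraxin, had 70, 105 and 87 reads in the add-back libraries and 0 reads in each of the 3 empty-vector libraries. At 4.77, 7.42 and 5.1 CPM it was at least 32.0-fold higher than the mean floor of 3 reads per empty-vector library, and it had no more than 1 read in any of the other 12 libraries of the series. Its FDR was 0.073, and 0.00277 without Jag1KO + ctrl replicate 3. The next gene, COL6A3, encodes a chain of collagen VI, and was at 11.0, 22.5 and 21.0 CPM in Jag1KO + rescue and 3.06, 4.55 and 2.95 CPM in Jag1KO + ctrl without overlap. Its difference of 2.36 ± 0.34 (FDR 0.104) was nearly as large without Jag1KO + ctrl replicate 3 (2.25, FDR 0.00696). The add-back mean was 24.7% of the Jag1WT mean of 73.3 ± 10.4 CPM (SD, n = 3), against 4.80% for the empty vector. SERPINB9, an inhibitor of granzyme B, was at 37.8, 36.2 and 38.2 CPM in Jag1KO + rescue and 13.9, 10.6 and 19.1 CPM in Jag1KO + ctrl. Its difference was 1.36 ± 0.22 (FDR 0.104), and the add-back mean was 106% of that of Jag1WT.

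HSPB8, a small heat shock protein gene, was at 6.2, 4.1 and 7.03 CPM in Jag1KO + rescue and 0.839, 1.14 and 1.75 CPM in Jag1KO + ctrl. F3, the gene of tissue factor, which starts blood coagulation, was at 213, 216 and 178 CPM in Jag1KO + rescue and 121, 113 and 120.5 CPM in Jag1KO + ctrl, the 3 empty-vector libraries lying close together. PRKCI, of an atypical protein kinase C, was at 98.8, 94.3 and 94.1 CPM in Jag1KO + rescue and 55.0, 57.8 and 67.5 CPM in Jag1KO + ctrl. These 3 had separate groups at log2 differences of 2.20 ± 0.36, 0.77 ± 0.14 and 0.66 ± 0.13. The ribosomal protein paralog RPL22L1, the complex I assembly factor NDUFAF2, PDCD10 and the cancer-testis antigen MAGEC1 completed the 12 leading genes with differences of 0.91, 0.81, 0.83 and 0.85. Each of the 12 genes other than JAG1 rose without Jag1KO + ctrl replicate 3, at FDRs from 0.00277 to 0.0104. DESeq2 on all 6 libraries gave the same genes FDRs from 1.5e-09 (NPTX1) to 0.00304 (PDCD10). The genes were chosen from the same libraries for separate groups and small p, so that these FDRs are not independent of the choice.

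**Figure D2:**
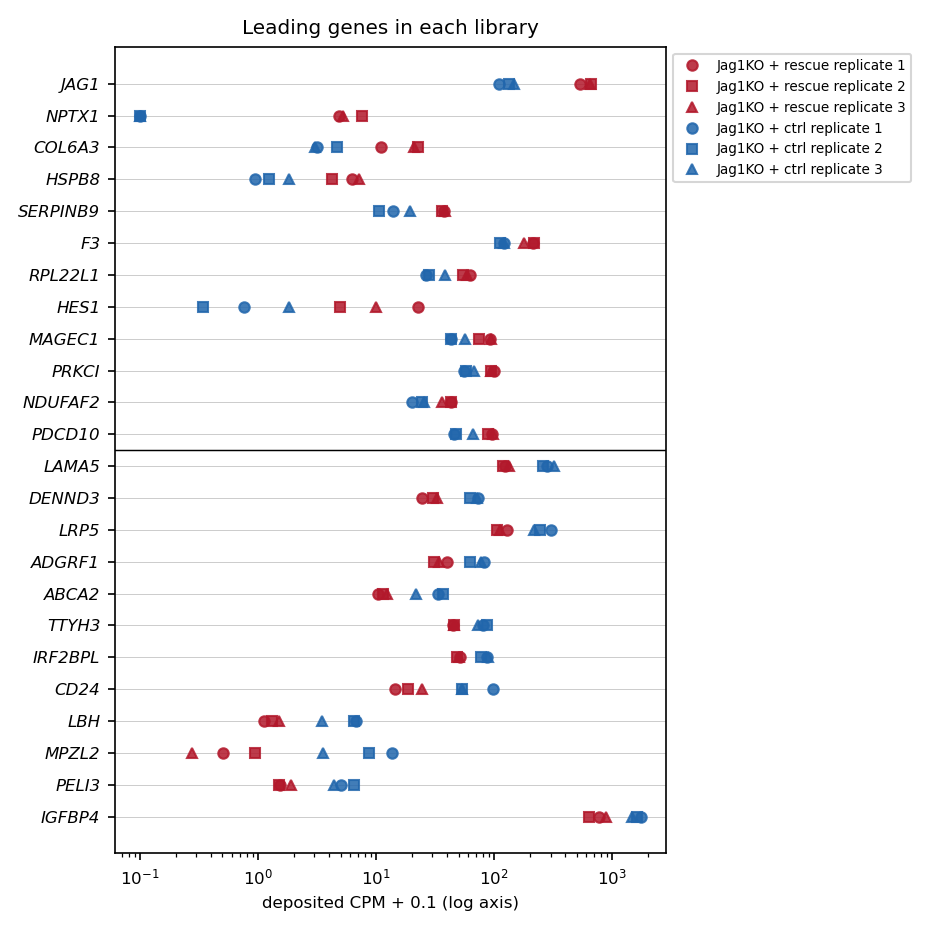
Deposited CPM plus 0.1, on a log axis, of the 12 leading genes on each side in the 6 libraries, with red for Jag1KO + rescue and blue for Jag1KO + ctrl and a symbol for each replicate. The 2 colours are separate for all 24 genes because separate groups were a condition of the choice, and the Jag1KO + ctrl triangles (replicate 3) lie nearest to the red points for genes such as LBH, MPZL2, HES1 and PDCD10.

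On the lower side the leading genes included a laminin, a Wnt co-receptor and CD24. LAMA5, which encodes the laminin α5 chain of basement membranes, was at 124, 118 and 133 CPM in Jag1KO + rescue and 277, 261 and 319.7 CPM in Jag1KO + ctrl. Jag1KO + ctrl replicate 3 was the highest of the 6, and the difference was −1.20 ± 0.14 (FDR 0.104). LRP5, a co-receptor for Wnt ligands, was at 128, 104 and 112 CPM in Jag1KO + rescue and 304, 244 and 216 CPM in Jag1KO + ctrl, and its difference of −1.16 ± 0.16 carried the same FDR of 0.104. DESeq2 on the same 6 libraries gave FDRs of 6.4e-10 for LAMA5 and 4.9e-06 for LRP5. CD24, a surface glycoprotein low on breast cancer cells described as stem-like, was at 14.3, 18.7 and 24.1 CPM in Jag1KO + rescue and 97.2, 53.7 and 52.9 CPM in Jag1KO + ctrl. It was lower in all add-back libraries, with a log2 difference of −1.84 ± 0.29. Jag1WT and Jag1KO had 7.76, 7.37 and 23.8 and 18.3, 24.3 and 34.1 CPM of CD24, so that the empty-vector libraries were above both.

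IGFBP4, a secreted binding protein of insulin-like growth factors, was at 777, 634 and 884 CPM in Jag1KO + rescue and 1753, 1627 and 1474 CPM in Jag1KO + ctrl. The adhesion receptor gene ADGRF1 was at 39.4, 30.9 and 33.8 CPM in Jag1KO + rescue and 82.6, 62.8 and 76.9 CPM in Jag1KO + ctrl, and here Jag1WT (39.1, 34.4 and 36.2 CPM) was also below Jag1KO (82.7, 92.5 and 93.4 CPM). The adhesion protein gene MPZL2 was at 0.409, 0.848 and 0.176 CPM in Jag1KO + rescue and 13.5, 8.63 and 3.43 CPM in Jag1KO + ctrl, and its Jag1KO + ctrl replicate 3 was the lowest of its group. The others were DENND3, ABCA2, TTYH3, IRF2BPL, LBH and PELI3, with log2 differences of −1.24, −1.44, −0.82, −0.77, −2.18 and −1.74. None of the 12 was called on 6 libraries, and 11 of them fell without Jag1KO + ctrl replicate 3 (FDR 0.00277 to 0.00633), MPZL2 not being tested there. As on the higher side, the same libraries chose the genes, so that these FDRs are not independent of the choice.

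Transcript GC content moved with the groups. The median log2 difference went from 0.15 in the quintile of genes with the lowest GC content (median 38.1%) to −0.28 in the quintile with the highest (median 61.0%), and Jag1KO + ctrl replicate 3 went with its own group here. Of the 12 leading lower genes, 7 were in the richest quintile, and of the 12 leading higher genes, none. When the median shift of each of 20 bins of GC content was removed from every library, an alternative chosen after seeing the data, the log2 difference of LAMA5 was −0.78, of LRP5 −0.91, of TTYH3 −0.39 and of CD24 −1.90, whereas JAG1 remained called at 2.20 and HES1 was at 3.77. On leaving out Jag1KO + ctrl replicate 3, the same correction left 1605 genes called higher and 1640 lower of 12275. Gene length showed no such gradient, with medians between −0.04 and 0.02 in its quintiles.

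**Figure D3:**
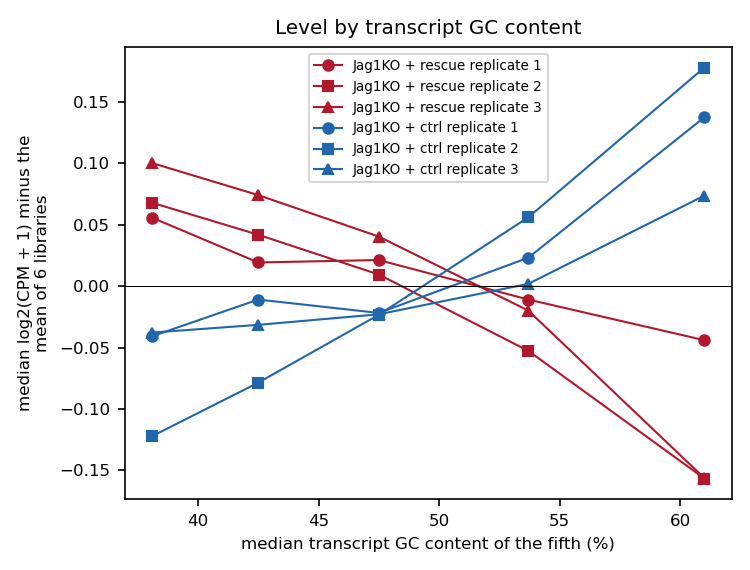
Median over genes of log2(CPM + 1) minus the mean of the 6 libraries, for 5 equal groups of genes ordered by transcript GC content (x axis, median GC percent of the quintile), with a line for each library. The 3 red Jag1KO + rescue lines fall and the 3 blue Jag1KO + ctrl lines rise with GC content, the difference between richest and poorest quintile running from −0.26 to −0.10 and from 0.11 to 0.30.

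Apart from JAG1, no member of any of the 35 gene lists was called on all 6 libraries. The counts of members with separate groups are to be read against 16.5% higher and 16.0% lower over all genes, and the counts called without Jag1KO + ctrl replicate 3 against 14.0% higher and 14.5% lower. In bulk libraries, fewer cells in a given state and less RNA of its genes per cell cannot be told apart. Amino acid stress genes driven by the transcription factor ATF4 had higher levels with the add-back. Their mean log2(CPM + 1) was 8.32, 8.20 and 8.39 in Jag1KO + rescue and 7.00, 6.57 and 8.17 in Jag1KO + ctrl, so that only replicates 1 and 2 of the empty vector were low. All 39 measured members had a positive log2 fold change with a median of 0.84, the groups were separate for 14 of them (16.5% over all genes), and none was called. Without Jag1KO + ctrl replicate 3, 36 of 39 rose, against 14.0% of all genes. ASNS, asparagine synthetase, shows the pattern at 1403, 849 and 1330 CPM in Jag1KO + rescue and 192, 143 and 904 CPM in Jag1KO + ctrl. Among the aminoacyl-tRNA synthetases NARS1 was at 289.5, 224 and 269 CPM in Jag1KO + rescue and 108, 101 and 197 CPM in Jag1KO + ctrl and TARS1 at 803, 736 and 813 CPM in Jag1KO + rescue and 388, 356 and 654 CPM in Jag1KO + ctrl, with all add-back libraries above all empty-vector libraries. The genes of ER folding and heat shock were similar at a smaller size, with 27 of 29 positive, a median of 0.42, 5 higher and 1 lower without overlap, and 12 called higher and 1 lower without replicate 3. The 5 of 29 is near the 16.5% of all genes, and the 12 of 29 is above the 14.0%. DNAJB11, an ER chaperone gene, was at 143, 111 and 129 CPM in Jag1KO + rescue and 66.8, 65.2 and 100.1 CPM in Jag1KO + ctrl. HSPB1, a small heat shock protein gene, was the lower exception at 84.4, 68.4 and 73.5 CPM in Jag1KO + rescue and 136, 141 and 84.5 CPM in Jag1KO + ctrl.

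On average, cell cycle genes had higher levels in replicates 1 and 2 of the empty vector than in the other 4 libraries. S phase genes averaged 4.09, 4.19 and 3.88 (log2(CPM + 1)) in Jag1KO + rescue and 5.11, 5.42 and 3.91 in Jag1KO + ctrl. Of 68 members, 65 had a negative log2 fold change with a median of −0.99, 9 had separate groups, a smaller share than the 16.0% of all genes, and none was called. With Jag1KO + ctrl replicate 3 left out, 52 fell, against 14.5% of all genes. MCM5, a subunit of the replicative helicase, was at 14.9, 12.4 and 14.4 CPM in Jag1KO + rescue and 47.5, 64.5 and 18.9 CPM in Jag1KO + ctrl. Genes of G2 and mitosis averaged 3.85, 5.43 and 4.16 with the add-back and 6.09, 6.55 and 4.53 with the empty vector, and add-back replicate 2 thus lay above Jag1KO + ctrl replicate 3. Their median was −1.35, no member of 69 had separate groups, and 31 fell without that library (14.5% of all genes). The mitotic kinesin KIF20A was at 1.43, 8.98 and 2.81 CPM in Jag1KO + rescue and 53.2, 81.5 and 4.87 CPM in Jag1KO + ctrl. Among cyclins, inhibitors and quiescence genes, 6 were higher and 3 lower without overlap, of 23 measured. CDK6, the partner kinase of cyclin D, was at 220.5, 232 and 216 CPM in Jag1KO + rescue and 153, 127 and 161 CPM in Jag1KO + ctrl. GAS6, a ligand of the AXL receptor kinase, was at 52.9, 59.7 and 62.2 CPM in Jag1KO + rescue and 124, 133 and 92.9 CPM in Jag1KO + ctrl. For both, Jag1KO + ctrl replicate 3 was nearer to its own group. Without that library 10 members of this list rose and 5 fell. Over all genes the shares were 16.5% and 16.0% for separate groups and 14.0% and 14.5% for these calls, so that the 3 of 23 lower was below the share of all genes.

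Most sterol and glycolysis genes had a negative log2 fold change. Genes of cholesterol and fatty acid synthesis had a median log2 fold change of −0.84, 31 of 32 were negative and 11 had separate groups on the lower side. None was called, while 21 fell and 1 rose without Jag1KO + ctrl replicate 3. The list averaged 6.26, 6.13 and 6.39 (log2(CPM + 1)) in Jag1KO + rescue and 7.16, 7.31 and 6.37 in Jag1KO + ctrl. Replicate 3 of the empty vector thus lay within the add-back range. FDFT1, squalene synthase, was at 64.7, 58.2 and 68.6 CPM in Jag1KO + rescue and 219.8, 267 and 74.9 CPM in Jag1KO + ctrl. Here replicate 3 of the empty vector was far below the other two and close to the add-back. Hypoxia and glycolysis genes had a median of −0.58 with 11 of 42 lower and 1 higher without overlap, and 19 fell and 1 rose without that library. PKM, pyruvate kinase, was at 1724, 1848 and 1843 CPM in Jag1KO + rescue and 3738, 4129 and 2132 CPM in Jag1KO + ctrl. SLC16A3, a lactate exporter gene, was at 228, 308 and 262 CPM in Jag1KO + rescue and 496, 489 and 385 CPM in Jag1KO + ctrl, and here replicate 3 stayed nearer to its group. Interferon-stimulated genes had a median of −0.32, with 10 of 34 lower and 1 higher without overlap. BST2, tetherin, was at 1.02, 1.41 and 1.29 CPM in Jag1KO + rescue and 8.09, 6.77 and 3.19 CPM in Jag1KO + ctrl. Without replicate 3, 9 fell and 1 rose. In these 3 lists the lower side was above, and the higher side below, the shares over all genes, which were 16.0% and 16.5% for separate groups and 14.5% and 14.0% without that library.

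**Figure D4:**
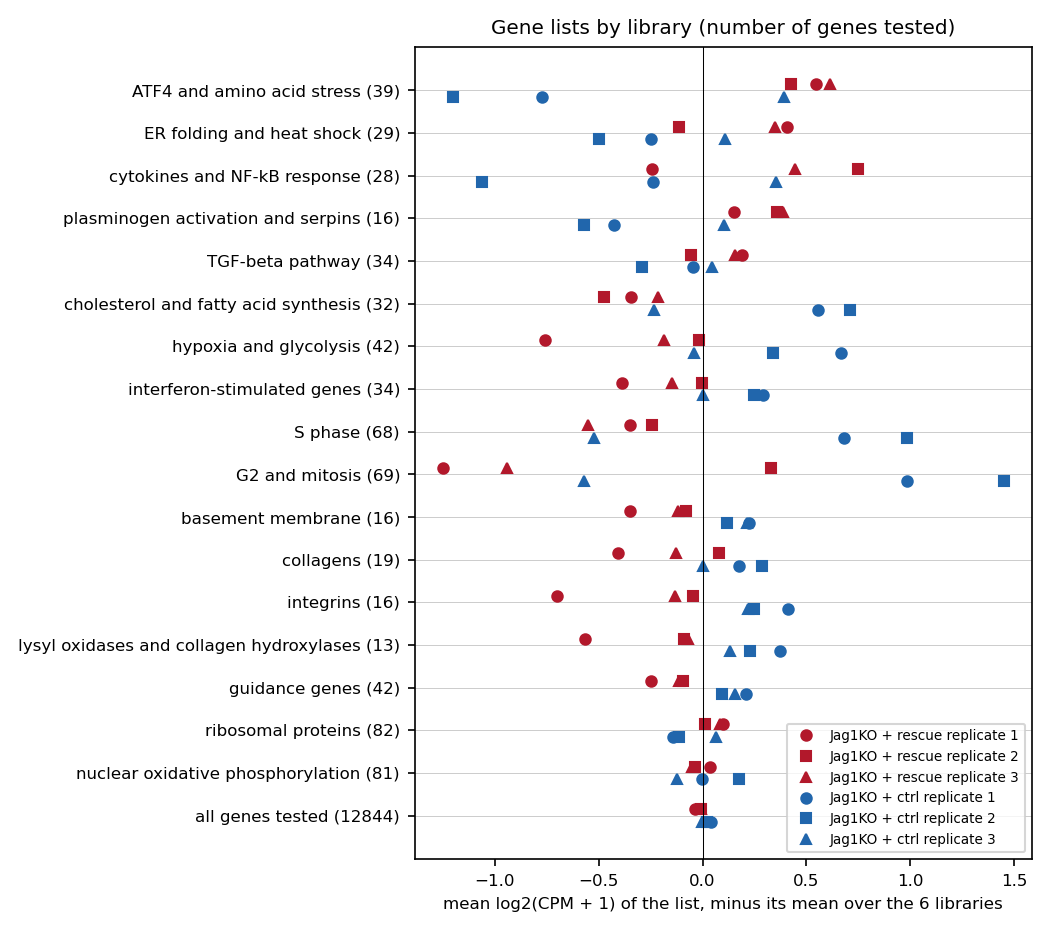
Mean log2(CPM + 1) of the measured genes of 17 lists and of all genes tested in each of the 6 libraries, minus the list's mean over the 6, with red for Jag1KO + rescue and blue for Jag1KO + ctrl. The blue triangle (Jag1KO + ctrl replicate 3) lies within the range of the red points for S phase and cholesterol genes and just below it for ATF4 genes (8.17 against 8.20 to 8.39), and with the other blue points for basement membrane, integrin and guidance genes.

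For extracellular matrix genes the place of replicate 3 of the empty vector was mixed. Of 16 measured basement membrane genes, 5 were lower without overlap and 0 higher, with a median of −0.31. HSPG2, perlecan, was at 10.4, 19.5 and 17.0 CPM in Jag1KO + rescue and 65.2, 61.6 and 38.0 CPM in Jag1KO + ctrl, LAMA3, the laminin α3 chain, at 87.0, 105 and 100.1 CPM in Jag1KO + rescue and 204, 181 and 143 CPM in Jag1KO + ctrl, and AGRN, agrin, at 169, 253 and 209 CPM in Jag1KO + rescue and 332, 309 and 385 CPM in Jag1KO + ctrl. In all of these and in LAMA5 every empty-vector library was above every add-back library. With Jag1KO + ctrl replicate 3 removed, 6 members fell and 2 rose. The shares over all genes were 16.0% lower and 16.5% higher for separate groups, and 14.5% and 14.0% for these calls, to which the 2 of 16 that rose is near. With GC content removed as well, 4 fell, and the median over 6 libraries was −0.16.

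Integrin genes, which encode the receptors for this matrix, were lower without overlap in 6 of 16 cases and higher in 1, with a median of −0.39. ITGA10, of a collagen-binding α subunit, was at 2.04, 6.36 and 6.27 CPM in Jag1KO + rescue and 33.3, 21.9 and 20.9 CPM in Jag1KO + ctrl. ITGB4, of the hemidesmosome integrin, was at 3.61, 15.1 and 11.4 CPM in Jag1KO + rescue and 45.8, 50.5 and 30.9 CPM in Jag1KO + ctrl, and ITGB5 at 91.6, 150.5 and 139 CPM in Jag1KO + rescue and 303, 314 and 220 CPM in Jag1KO + ctrl. None was called on 6 libraries, and 5 fell without Jag1KO + ctrl replicate 3, none rising. Over all genes, 16.0% were lower without overlap and 14.5% fell without that library. Removing GC content left the median at −0.40.

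Collagen genes gave 5 of 19 lower and 1, COL6A3, higher without overlap, with a median of −0.23. COL6A1, another chain of collagen VI, was at 20.8, 20.9 and 20.6 CPM in Jag1KO + rescue and 44.2, 31.1 and 46.0 CPM in Jag1KO + ctrl, opposite in direction to COL6A3. COL13A1, of a transmembrane collagen, was at 104, 277 and 183 CPM in Jag1KO + rescue and 519, 518 and 339 CPM in Jag1KO + ctrl. The median of this list, which had 11 of 19 members in the richest quintile of GC content, was 0.03 with GC content removed. Without Jag1KO + ctrl replicate 3, 7 collagen genes fell and COL6A3 rose, and with both changes 4 fell. Lysyl oxidases and collagen hydroxylases, which cross-link and modify collagen, had 5 of 13 lower and 0 higher without overlap, and a median of −0.30. LOXL4 was at 5.66, 16.5 and 16.3 CPM in Jag1KO + rescue and 49.4, 50.9 and 27.4 CPM in Jag1KO + ctrl, and PLOD1, a lysyl hydroxylase gene, at 123, 162 and 162 CPM in Jag1KO + rescue and 305, 279 and 208 CPM in Jag1KO + ctrl. Without replicate 3, 3 fell and 1 rose. Both lists were above the 16.0% of all genes with separate groups on the lower side and above the 14.5% that fell without replicate 3, and below the 16.5% and 14.0% on the higher side.

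Matrix proteases were mixed. Of 13 measured matrix metalloproteinase and inhibitor genes, 2 were higher and 4 lower without overlap (median −0.17). MMP3, stromelysin-1, was at 136, 37.6 and 97.5 CPM in Jag1KO + rescue and 13.7, 3.83 and 35.2 CPM in Jag1KO + ctrl, and the inhibitor gene TIMP2 at 159.6, 219 and 215 CPM in Jag1KO + rescue and 371, 353 and 291 CPM in Jag1KO + ctrl. Without replicate 3, 5 rose and 3 fell. The plasminogen and serpin list had 15 of 16 members positive with a median of 0.44, 4 higher without overlap, and 6 rising without replicate 3. SERPINB2, which inhibits urokinase, was at 7777, 2283 and 4527 CPM in Jag1KO + rescue and 285, 258 and 2093 CPM in Jag1KO + ctrl. The 7 measured ADAMTS protease genes had 0 higher and 0 lower without overlap, a median of −0.06, and 1 rising and 1 falling without replicate 3. Matricellular genes had 5 of 16 lower and 0 higher (median −0.03). LTBP4, a latent TGFβ binding protein gene, was at 62.7, 60.9 and 57.6 CPM in Jag1KO + rescue and 96.5, 118 and 91.8 CPM in Jag1KO + ctrl. In that list 4 rose and 3 fell without replicate 3. Against 16.5% of all genes higher and 16.0% lower, the metalloproteinase list was near the share of all genes on the higher side and above it on the lower, the serpin list above it on the higher side only, and the matricellular list above it on the lower side only. Without replicate 3, where 14.0% of all genes rose and 14.5% fell, the metalloproteinase and matricellular lists were above both shares, the serpin list above the first only, and the ADAMTS list near both.

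Signalling lists held members in both directions. In the TGFβ pathway 8 of 34 were higher and 5 lower without overlap (median 0.21). TGFBR1, the type I receptor gene, was at 96.2, 93.5 and 113 CPM in Jag1KO + rescue and 56.4, 58.2 and 76.4 CPM in Jag1KO + ctrl, and TGFBR3, the co-receptor betaglycan, at 11.7, 12.2 and 14.2 CPM in Jag1KO + rescue and 30.6, 25.1 and 19.5 CPM in Jag1KO + ctrl. Without replicate 3, 8 rose and 4 fell. Cytokine and NF-κB genes had 25 of 28 positive with a median of 0.49, 5 higher and 1 lower without overlap. IL24 was at 47.3, 63.4 and 47.3 CPM in Jag1KO + rescue and 7.97, 2.58 and 29.2 CPM in Jag1KO + ctrl, with replicate 3 of the empty vector the highest of its group. CSF1, the macrophage growth factor, went the other way at 297, 511 and 498 CPM in Jag1KO + rescue and 1080, 706 and 815 CPM in Jag1KO + ctrl. In that list 11 rose and 1 fell without replicate 3. EGF family genes had 6 of 27 higher and 4 lower without overlap (median 0.32), and 10 rose and 6 fell without replicate 3. SPRY1, a feedback inhibitor of receptor kinase signalling, was at 22.4, 18.6 and 22.0 CPM in Jag1KO + rescue and 62.0, 55.9 and 36.8 CPM in Jag1KO + ctrl. YAP and TEAD targets had 4 of 20 higher and 2 lower without overlap (median 0.06), with 4 rising and 2 falling without replicate 3. Against 16.5% of all genes higher and 16.0% lower without overlap, the 5 of 28 cytokine genes and the 4 of 20 YAP targets on the higher side were near the share of all genes, and all 4 lists were below it on the lower side. Without replicate 3, where 14.0% of all genes rose and 14.5% fell, the cytokine and EGF lists were furthest above the share that rose, and the TGFβ, cytokine and YAP lists were below the share that fell.

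Guidance genes, of semaphorins, plexins, ephrins, netrins and their receptors, were lower without overlap in 15 of 42 cases and higher in 2, with a median of −0.43. PLXNB3, a plexin receptor gene, was at 16.3, 25.0 and 20.0 CPM in Jag1KO + rescue and 49.5, 52.3 and 41.3 CPM in Jag1KO + ctrl, PLXND1 at 20.2, 18.4 and 28.2 CPM in Jag1KO + rescue and 53.5, 46.7 and 39.9 CPM in Jag1KO + ctrl and the semaphorin gene SEMA6B at 8.31, 10.8 and 9.03 CPM in Jag1KO + rescue and 36.0, 38.4 and 17.3 CPM in Jag1KO + ctrl. Replicate 3 of the empty vector was nearer to its group for the plexins and nearer to the add-back for SEMA6B. Without replicate 3, 12 fell and 5 rose. Over all genes, 16.0% were lower and 16.5% higher without overlap, and 14.5% fell and 14.0% rose without replicate 3, to which the 5 that rose is near. Of the 42, 21 were in the richest quintile of GC content, and the median was −0.33 with GC content removed.

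Markers of cell state were split as well. Epithelial keratin and junction genes had 8 of 26 lower and 3 higher without overlap (median −0.05). KRT8 was at 31.0, 41.2 and 38.9 CPM in Jag1KO + rescue and 118, 149 and 57.9 CPM in Jag1KO + ctrl and JUP, plakoglobin, at 41.2, 69.0 and 58.6 CPM in Jag1KO + rescue and 155, 147 and 108 CPM in Jag1KO + ctrl. Without replicate 3, 7 members of the list fell and 6 rose. Of the 26, 14 were in the richest quintile of GC content, and the median was 0.08 with GC content removed. With both changes, 6 fell and 8 rose. Of the mesenchymal list, 3 of 10 were lower and 1 higher without overlap (median −0.36). CDH11, a mesenchymal cadherin gene, was at 18.1, 19.9 and 26.7 CPM in Jag1KO + rescue and 102, 70.5 and 47.0 CPM in Jag1KO + ctrl, and ZEB1, a repressor of epithelial genes, at 141, 140.3 and 124 CPM in Jag1KO + rescue and 105, 91.7 and 107 CPM in Jag1KO + ctrl. Without replicate 3, CDH11 and S100A4 fell (log2 −2.00 and −2.60) and SNAI1 rose (2.08). Of the breast cancer stem cell markers, 2 of 11, including CD24, were lower and 1, ALDH1A3, higher without overlap (median −0.16). ALDH1A3, an aldehyde dehydrogenase gene, was at 22.4, 38.3 and 24.2 CPM in Jag1KO + rescue and 8.87, 8.63 and 18.4 CPM in Jag1KO + ctrl. In this list 2 rose and 2 fell without replicate 3. Beside 16.5% of all genes higher and 16.0% lower, these 3 lists were below the share of all genes on the higher side, and the 2 of 11 stem cell markers were near it on the lower side. The shares over all genes without replicate 3 were 14.0% that rose and 14.5% that fell.

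Housekeeping lists had medians near 0. Ribosomal protein genes had a median log2 fold change of 0.09, with 15 of 82 higher and 12 lower without overlap, and 9 rose without Jag1KO + ctrl replicate 3, none falling. Nuclear genes of oxidative phosphorylation had a median of −0.04 (12 of 81 higher and 8 lower without overlap, 2 rising and 7 falling without replicate 3). Mitochondrially encoded genes had a median of 0.03, with 1 of 13 higher and 0 lower without overlap and no call with or without replicate 3. None of these counts was far above the 16.5% and 16.0% of all genes with separate groups or above the 14.0% and 14.5% called without replicate 3. The marker lists of the cell line gave medians of −0.09 for the 6 markers of the line and −0.36 for the 4 measured of those known to be low in it, with EGFR rising and CAV1 and ERBB2 falling without replicate 3. Lists of other cell types had 2 measured genes each, with median log2 fold changes of 0.49 for fibroblasts and pericytes (COL1A1 and RGS5), −0.74 for endothelium (PECAM1 and KDR) and −0.89 for leukocytes (CD14 and CD68). Of these genes, named as the measured members of their lists, KDR rose and PECAM1 and CD14 fell without replicate 3, while the summed level of the lists was 12.9 to 22.3 against 11.6 to 13.8 CPM, 17.8 to 21.0 against 18.8 to 23.7 CPM and 96.2 to 188 against 147 to 213 CPM in Jag1KO + rescue and Jag1KO + ctrl. The part of other cells in any result was not tested.

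The difference of Jag1KO + ctrl replicate 3 from replicates 1 and 2 was then described gene by gene, with no test, since it is a single library. Of 8967 genes with a mean of at least 10 CPM and with replicates 1 and 2 within 1.5-fold, replicate 3 was at least 2-fold above both in 150 (1.67%) and at least 2-fold below both in 264 (2.94%). These counts and those that follow are measured from replicates 1 and 2, which also chose the genes, so that no value for an absence of change exists for them. In 149 of the 150 all 3 add-back libraries were also above both, and in 260 of the 264 all 3 were also below both. The highest genes by fold were INHBE, FOSB, SERPINB2, ADM2, SLC1A4, ASNS, CCND2, HKDC1, NR1D1 and PER2. INHBE, an activin subunit gene, was at 28.5, 30.6 and 49.4 CPM in Jag1KO + rescue and 2.34, 1.56 and 27.4 CPM in Jag1KO + ctrl. The immediate early gene FOSB was at 54.4, 39.0 and 75.9 CPM in Jag1KO + rescue and 5.88, 4.55 and 55.5 CPM in Jag1KO + ctrl, and NR1D1, a clock repressor gene, at 338, 266 and 256 CPM in Jag1KO + rescue and 42.6, 33.7 and 185 CPM in Jag1KO + ctrl. The lowest were RAB3B, BRIP1, PSRC1, ERCC6L, KIF15, TOP2A, CDCA2, LMNB1, NCAPH and RRM2. RAB3B, of a vesicle GTPase, was at 0.886, 6.15 and 4.34 CPM in Jag1KO + rescue and 58.8, 61.2 and 6.32 CPM in Jag1KO + ctrl. TOP2A, topoisomerase IIα, was at 26.9, 139.6 and 35.2 CPM in Jag1KO + rescue and 362, 472 and 62.3 CPM in Jag1KO + ctrl, and RRM2, of ribonucleotide reductase, at 25.1, 35.8 and 18.4 CPM in Jag1KO + rescue and 85.8, 127 and 16.5 CPM in Jag1KO + ctrl. In these examples replicate 3 lay with or next to the add-back libraries. By list, 15 of 28 ATF4 genes considered were 2-fold higher in replicate 3 and none lower, and 31 of 52 S phase genes, 29 of 44 genes of G2 and mitosis, 9 of 30 cholesterol and fatty acid genes and 6 of 32 hypoxia and glycolysis genes were 2-fold lower and none higher.

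The place of replicate 3 was also described for the genes called without it. The calls and the distances both use replicates 1 and 2, so that the following counts have no value for an absence of change and are a description. On log2(CPM + 1) replicate 3 was nearer to the mean of the add-back libraries than to that of replicates 1 and 2 for 2950 of the 3612 called genes (81.7%), made up of 1521 of 1769 higher and 1429 of 1843 lower. By list, all called genes were nearer to the add-back in the ATF4 (36), S phase (52) and G2 and mitosis (31) lists. The same held for the cholesterol (22), ER folding and heat shock (13) and interferon (10) lists. In other lists this was so for 18 of 20 hypoxia and glycolysis genes and 10 of 17 guidance genes. It was so for 4 of 8 collagen genes, 4 of 8 basement membrane genes and 1 of 5 integrin genes. For 240 genes higher and 411 lower, replicate 3 was nearer to replicates 1 and 2 and all empty-vector libraries were on one side of all add-back libraries. JAG1, COL6A3, SERPINB9, F3, LAMA5, LRP5, CD24 and HSPG2 were among them, HES1 too.

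**Figure D5:**
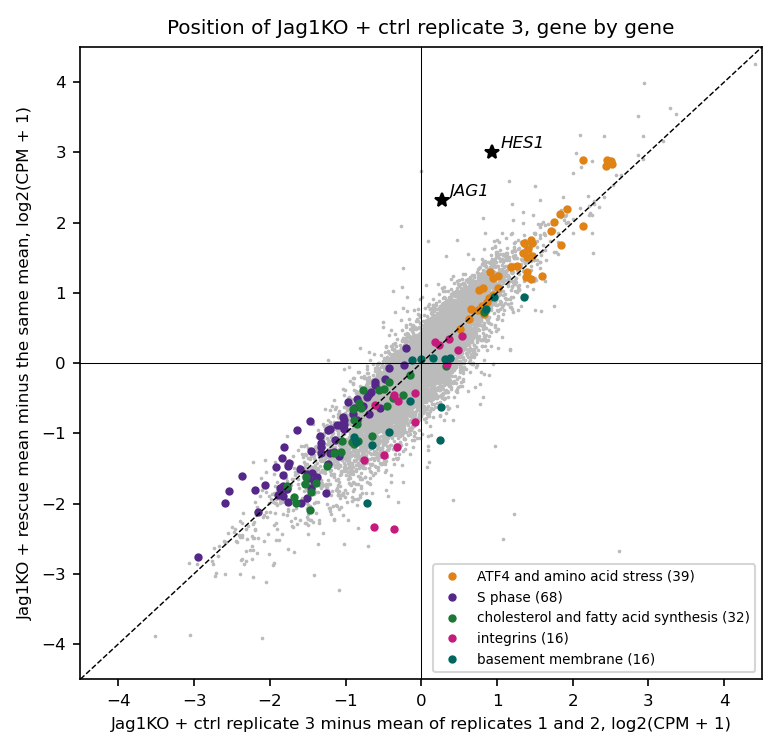
For each of 12844 genes, the difference of Jag1KO + ctrl replicate 3 (x axis) and of the Jag1KO + rescue mean (y axis) from the mean of Jag1KO + ctrl replicates 1 and 2, on log2(CPM + 1), with 5 gene lists in colour. Both axes share replicates 1 and 2, which by itself draws points towards the dashed line of equal values. ATF4, S phase and cholesterol genes lie near that line, JAG1 and HES1 well above it, and several integrin and basement membrane genes below it.

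The add-back addresses whether effects of the knockout are undone, so the genes called between Jag1WT and Jag1KO were looked up in it. These 2 comparisons share no library. At the same thresholds 37 genes (0.289%) had higher and 33 (0.258%) lower levels in Jag1WT, of 12809 that entered the fit. Of the 35 higher genes also measured in the add-back, 25 had a positive log2 fold change there (24 of 34 without JAG1), and 11 had separate groups in that direction and 0 in the other, where all genes gave 16.5% and 16.0%. On leaving out Jag1KO + ctrl replicate 3, 11 were called in the same and 4 in the opposite direction (14.0% and 14.5% of all genes), the 4 being COL18A1, ADAM19, CMKLR1 and P2RY2, which are named after their values were seen. The 11 with separate groups included JAG1, COL6A3, SERPINB9, TGFBR1, F2RL1, ABCA1, NTN4 and KRT79, which, beyond the first 4, are named after their values were seen. Of the 33 genes lower in Jag1WT, 12 had a negative log2 fold change in the add-back, with 5 separate in that direction (ADGRF1, KCNAB2, LPAR1, PDZK1IP1 and VIPR1, of which only ADGRF1 was named by a rule) and 11 in the opposite one. The 5 of 33 is about the 16.0% of all genes that were lower, and the 11 of 33 is above the 16.5% that were higher. When Jag1KO + ctrl replicate 3 was left out, 5 were called in the same and 9 in the opposite direction, against 14.5% and 14.0% of all genes. The median log2 difference was 1.12 between Jag1WT and Jag1KO and 0.24 in the add-back for the genes higher in Jag1WT, and −1.69 and 0.23 for the genes lower in it. Without Jag1KO + ctrl replicate 3 these add-back medians were 0.32 and 0.32. The Jag1KO cells are a mixture of clones, and differences between clones and the parental line cannot be told apart from the loss of JAG1 in that comparison.

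A direct test of the difference between the effects, as an interaction over 12 libraries, gave 32 genes with a more positive effect (0.250%) and 44 with a more negative effect (0.344%) in the add-back at an FDR below 0.05. The 76 genes in all became 2552 without Jag1KO + ctrl replicate 3, and were as few as 16 on leaving out either Jag1KO + rescue replicate 3 or replicate 1 of Jag1KO + ctrl. The 6 with the smallest p were the cancer-testis antigens MAGEC1, MAGEC2 and PAGE5, and CSMD1, KCNN3 and ADAMTS1. MAGEC1 was at 4.23, 5.26 and 5.35 CPM in Jag1WT and 20.3, 19.8 and 24.7 CPM in Jag1KO, against 92.6, 73.5 and 93.4 CPM in Jag1KO + rescue and 43.2, 43.1 and 56.9 CPM in Jag1KO + ctrl. It was thus lowest in the unedited cells and highest with the add-back, and the difference of the effects was 2.96 (FDR 0.000328). ADAMTS1, a secreted protease gene, was at 15.2, 9.85 and 13.8 and 51.1, 41.7 and 41.1 CPM in Jag1WT and Jag1KO and at 86.6, 71.3 and 80.0 CPM in Jag1KO + rescue and 68.7, 73.0 and 67.8 CPM in Jag1KO + ctrl. All 6 were lower in Jag1WT than in Jag1KO, with log2 fold changes from −4.08 for CSMD1 to −1.68 for PAGE5. Their add-back differences ran from −0.16 for KCNN3 to 0.85 for MAGEC1. For JAG1 itself the effects differed by 0.49 (FDR 0.326), for HES1 by 0.78 (FDR 0.667) and for COL6A3 by −1.55 (FDR 0.0657).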

How the data were processed

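MDA-MB-231 cells in 3D Matrigel culture were profiled by stranded poly(A) RNA-seq (Illumina TruSeq, paired reads). Per the study's methods, reads were aligned to hg38 and uniquely mapped reads were counted per gene. The submitters' processing notes name featureCounts, edgeR 3.28.0, R 3.6.1 and MultiQC 1.5, and the aligner is not given in the sources used here. The authors deposited raw read counts per gene, CPM scaled by TMM factors over the 18 libraries (treated here as a normalized score, not as counts), and RPKM. Of the RPKM columns, 3 whose names matched no sample title were not used. Levels are the deposited CPM, or RPKM where genes are compared per length.

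Groups were taken from the labels, which name biological replicates. Counts of the 6 libraries were scaled by TMM and tested with edgeR 4.0.16 (quasi-likelihood, robust prior, R 4.3.3), which replaced the authors' ROTS statistic, not run here. Genes above 1 CPM in at least 3 libraries were kept, and genes past an FDR (Benjamini-Hochberg) of 0.05 that also differed by over 1.5-fold were called. The SE of a log2 fold change was its size divided by the square root of F. The interaction was fitted over 12 libraries, with genes above 1 CPM in at least 6. Alternatives used DESeq2 1.42.0, limma 3.58.1, other filters, scalings and sample sets, and a correction for transcript GC content (GENCODE 44). The script was tested on simulated counts, in which the changed genes were taken from those with a mean above 10 CPM. With the same spread between replicates for all genes, it called 62 of 100 genes changed 2-fold and 100 of 100 changed 4-fold. It also called 13 of 12644 unchanged genes. With a spread set for each gene, these counts were 55, 95 and 6. The simulation drew each gene independently and held no shift of a whole library like that of Jag1KO + ctrl replicate 3. Its counts therefore do not measure the sensitivity reached in the real libraries.

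Named genes were every measured Notch list member, 12 leading genes a side (called genes with separate groups and a mean of at least 5 CPM, then those of smallest p), up to 4 members of each other list by smallest p, 10 genes a side for Jag1KO + ctrl replicate 3, and the 6 interaction genes of smallest p. Values of a few genes that these rules name are not reported here. Members, lists and rules were chosen with earlier results of these data known. A floor of 3 reads, and the depth of 14813722 to 18327890 reads, cover counting error only.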

Additional observations from a re-analysis of the deposited data

Results flagged for a closer look

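For 15 of the genes named, the difference between Jag1KO + rescue and Jag1KO + ctrl was unlike the difference between Jag1WT and Jag1KO by edgeR's test of the interaction over 12 libraries (FDR below 0.05 over 12809 genes). The difference is the log2 fold change of Jag1KO + rescue against Jag1KO + ctrl minus that of Jag1WT against Jag1KO. It was positive for CSMD1 at 4.25, MAGEC1 at 2.96, MAGEC2 at 2.44, PAGE5 at 2.21, KCNN3 at 2.10 and ADAMTS1 at 1.94, all of which were lower in Jag1WT than in Jag1KO. F3 and PDCD10 also had positive differences, of 0.84 and 0.93, with log2 fold changes near 0 between Jag1WT and Jag1KO (−0.09 and −0.13). Negative differences were found for COL18A1 at −2.74, PLXND1 at −2.20, OAS2, an interferon-stimulated gene, at −1.69, TRIM22, another, at −1.94, P2RY2 at −1.56, COL6A1 at −1.68 and ABCA2 at −1.50. COL6A1 and PLXND1 were 0.69 and 1.10 between Jag1WT and Jag1KO and −0.97 and −1.07 in the add-back. The FDRs of F3, PDCD10, ABCA2, OAS2, TRIM22 and P2RY2 lay between 0.0473 and 0.0498, close to the threshold. COL18A1 and P2RY2 were named after their values were seen. Jag1WT and Jag1KO also differ as a parental line and a mixture of clones, and the causes of these differences were not tested.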

How the results depend on the processing

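The number of genes called differed between the alternatives. Against 1 gene higher and 0 lower, the counts higher and lower were 2048 and 2607 with limma voom and sample quality weights, 770 and 1369 with all 18 libraries in one fit, 584 and 996 with DESeq2, 7 and 26 without a filter on low counts, and 2 and 0 with limma on log2(CPM + 1). Leaving out 1 library gave 0 to 1769 genes higher and 0 to 1843 lower, the highest without Jag1KO + ctrl replicate 3, where GC content removed as well gave 1605 and 1640. The interaction count of 76 was 847 with all 18 libraries and 16 to 2552 when 1 library was left out. At 1.5-fold in place of 2-fold, Jag1KO + ctrl replicate 3 was above both other libraries for 740 genes and below both for 757. The replicate block gave 3 genes higher and 1 lower. Same-numbered libraries deviated from their group means with correlations of −0.21, 0.34 and 0.24 over genes, so that the numbers were not taken to pair the libraries. The GC alternatives were chosen after seeing the data.

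Of 164 named genes tested, none changed direction with DESeq2, RLE scaling, all 18 libraries, the block or other filters. JAG2 was at 0.16 and DLL4 at −1.04 with voom, and JAG2 at 0.26 and RBPJ at −0.021 with GC content removed (0.78 for JAG2 and −0.0084 for RBPJ also without Jag1KO + ctrl replicate 3). With 1 library left out, the sign turned within ranges of −0.36 to 0.34 for JAG2, −0.0075 to 0.67 for DLL4, −0.0526 to 0.19 for RBPJ, −0.0867 to 0.35 for HES4, −0.14 to 0.34 for MAML3, −0.0996 to 0.23 for DTX3, −0.0899 to 0.26 for NUMBL, −0.0085 to 0.13 for POFUT1 and −0.15 to 0.0282 for PSENEN. The cause was not tested. Precision is limited by 3 libraries a group, and genes below 1 CPM were not judged.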
